A study of Mus musculus with 6 samples.

Results

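The 9 TGF-beta pathway genes Tgfb1, Tgfb2, Tgfbr1, Tgfbr2, Smad3, Smad6, Smad7, Ski and Skil were followed through the genome-wide binding data of KLF3 and 2 of its mutants. A peak was taken as a member where the deposited annotation named one of these genes as the nearest gene, which gave 46 of the 22188 peaks in the table of all peaks. The cells were C57BL/6 Klf3-/- murine embryonic fibroblasts (MEFs), which make no KLF3 of their own. They were rescued by retroviral delivery of Klf3-V5, ΔDL-V5 or DBD-V5. KLF3, a zinc finger repressor of the Krüppel-like family, binds CACCC boxes and GC-rich elements. In ΔDL the contact motif for the corepressor CtBP carries a substitution, and DBD keeps the C-terminal zinc fingers with a putative nuclear localization signal. Each line was a puromycin-selected stable clone, so clone and construct cannot be told apart. The tagged proteins were immunoprecipitated through V5, and the chromatin was sequenced in 2 biological replicates per construct, each beside an input.

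TGF-beta ligands bind the type II receptor TGFBR2, which then phosphorylates the type I receptor TGFBR1. The activated receptor phosphorylates SMAD2 and SMAD3, which enter the nucleus with SMAD4 and regulate transcription. SMAD6 and SMAD7 inhibit signalling at the receptor or SMAD level, and SKI and SKIL (SnoN) are nuclear corepressors that hold SMAD complexes in check. In fibroblasts the pathway is known for driving matrix production and the myofibroblast state.

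Peak heights were deposited as log2 values of the tags in 400 bp around a peak, counted over both replicates together and scaled to 100 M tags. They are given here as normalized tags, and differences between constructs as log2. The combined totals were 23.3 M tags with KLF3, 11.8 M with ΔDL and 16.0 M with DBD (M, 1e6), and uniform coverage of the genome would put 15.1 normalized tags in 400 bp. A height has no replicate error, so no test between constructs was run on it. Each difference carries instead an exact 95% interval from the number of tags (conditional binomial), which covers counting error only. Replicate lists give the score and thus the tags of each peak called in each replicate, from 1.77 M tags in ΔDL replicate 1 to 18.1 M in KLF3 replicate 2. ΔDL replicate 1 was the shallowest list, and a site missing from it was not called at that depth. Its tags cannot be taken out of the combined heights. Replicate 2 held most of the tags of KLF3 (18.1 M beside 5.46 M) and of ΔDL (10.2 M beside 1.77 M). The combined heights of these 2 constructs thus rest mostly on that replicate, whereas the DBD replicates had 7.81 M and 8.38 M. At the 2334 peaks listed for all 3 constructs the median height of ΔDL was 1.06 above that of KLF3 on the log2 scale, and that of DBD was 0.42 above.

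All 9 genes had at least 1 peak listed for KLF3. Of the 46 peaks, 41 were listed for KLF3, 13 for ΔDL and 1 for DBD, and 33 were listed for KLF3 alone. Among all 22188 peaks 63.6% were listed for KLF3, 55.2% with ΔDL and 22.3% with DBD, and 42.4% for KLF3 alone. KLF3 heights at the members ranged from 73.5 to 949 normalized tags with a median of 286, beside a median of 163 over all peaks. Among KLF3-listed peaks the medians were closer, 304 for the members and 241 for all. Member peaks were spread over kinds of region much as all peaks were. In promoters (from 1000 bp upstream to 100 bp downstream) there were 8, or 17.4%, beside 20.1% of all peaks. Introns held 15, or 32.6%, beside 32.8%, and 22 were between genes, or 47.8%, beside 43.7%. The remaining 1 was in an exon.

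**Figure D1:**
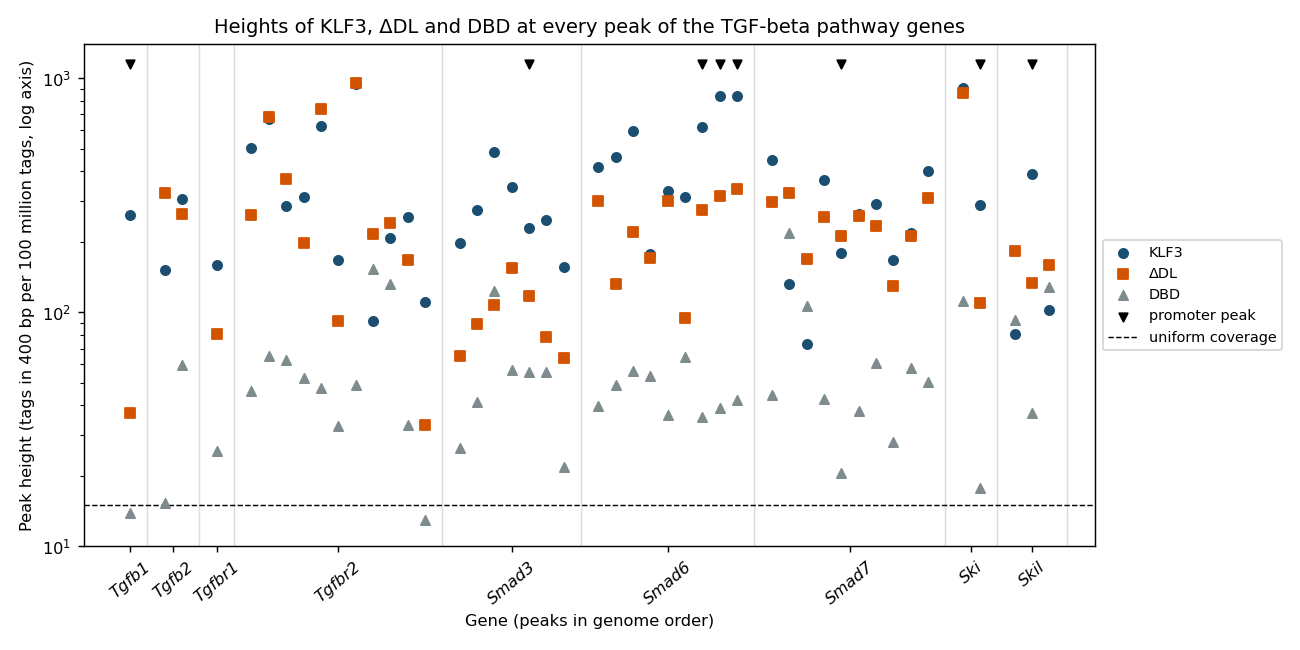
Peak heights of KLF3 (circles), ΔDL (squares) and DBD (triangles) at the 46 peaks, by gene and in genome order, in tags per 400 bp per 100 M tags on a log axis. Black triangles at the top mark the 8 promoter peaks and the dashed line is uniform coverage, 15.1 normalized tags. DBD lies at least 2-fold below KLF3 at 40 peaks, beside 52.6% of all peaks. ΔDL does at 1 of the 21 Tgfbr2 and Smad7 peaks, beside 14.9% of all peaks. It does at 6 of the 7 Smad3 peaks, all KLF3-listed, beside 23.3% of all KLF3-listed peaks. These genes were picked for the caption after their values were seen.

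At 16 of the 46 peaks ΔDL stood 2-fold or more below KLF3, beside 14.9% of all peaks, and at least 2-fold higher at 5, beside 28.9%. The median difference over the members was -0.56, beside 0.42 over all peaks. Since most member peaks were listed for KLF3, the KLF3-listed peaks are the closer background: 16 of the 41 such members were at least 2-fold lower in ΔDL, beside 23.3%, and 2 were at least 2-fold higher, beside 11.0%. The medians there were -0.65 over the members and -0.35 over all such peaks. Listing for KLF3 uses the same KLF3 tags as the difference. The split between lower and higher peaks depended on the scaling. With the heights shifted to the KLF3 median over the commonly listed peaks, 36 members were at least 2-fold lower in ΔDL and 0 were higher, beside 43.0% and 0.397% of all peaks. Every ΔDL difference below is on the deposited scale and would be lower by 1.06 after that shift, which leaves the order of the peaks as it is.

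DBD stood 2-fold or more below KLF3 at 40 of the 46 peaks, beside 52.6% of all peaks, and at 39 of the 41 KLF3-listed members, beside 79.2%. It was at least 2-fold higher at 0 members, beside 3.27%. The median DBD difference was -2.88 over the members and -1.45 over all peaks, and -2.96 beside -2.54 among KLF3-listed peaks. The ΔDL and DBD differences share the KLF3 heights.

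Of the ligand genes, Tgfb1 had 1 peak, in its promoter 173 bp upstream of the start site (chromosome 7, 26471648 to 26472048, mm9). Its KLF3 height was 261 normalized tags, its ΔDL height 37.0 and its DBD height 13.8. The ΔDL difference of -2.82 (95% interval -4.87 to -1.52) was the lowest of the 46, and the DBD height was under that of uniform coverage. The combined heights rested on 61 tags with KLF3, 4 with ΔDL and 2 with DBD. The peak was called with 9 tags in KLF3 replicate 1 and 26 in replicate 2, and in no ΔDL or DBD replicate. Tgfb2 had 2 peaks, both between genes on chromosome 1 and over 100 kb downstream of its start site. At the peak 119 kb away the KLF3 height was 304 normalized tags and the ΔDL height 263, a difference of -0.21 (-0.88 to 0.41). At the peak 257 kb away the order was turned: KLF3 had 152 and ΔDL 324, a difference of 1.09 (0.40 to 1.80). That peak was called in ΔDL replicate 2 with 14 tags but not in replicate 1. DBD was low at both, with 59.3 and 15.3 normalized tags. A Tgfb2 promoter peak was listed in no replicate.

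The sequences are shown so that the KLF-type elements under the peaks can be seen. They are the 200 bases around the peak centre on the plus strand of mm9, with capitals for a CACCC-type hexamer on either strand (the 4 hexamers are spelled out with the motif counts). Of the 4, CCGCCC and ACGCCC do not contain CACCC itself, and CACCC preceded by G or T was not marked. The Tgfb1 promoter window held 2 matches to the 4 hexamers and the Tgfb2 window 1.
Tgfb1 promoter, chr7:26471749-26471948: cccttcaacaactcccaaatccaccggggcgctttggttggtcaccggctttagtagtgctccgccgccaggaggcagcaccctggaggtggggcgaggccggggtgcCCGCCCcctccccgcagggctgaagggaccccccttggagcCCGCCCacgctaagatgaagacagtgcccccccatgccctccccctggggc
Tgfb2 distal, chr1:188410768-188410967: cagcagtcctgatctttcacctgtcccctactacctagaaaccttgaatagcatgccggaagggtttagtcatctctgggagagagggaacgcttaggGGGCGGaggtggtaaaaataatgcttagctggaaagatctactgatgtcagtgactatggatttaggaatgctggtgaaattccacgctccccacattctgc

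Of the receptor genes, Tgfbr1 (type I) had 1 peak, 43.3 kb upstream of its start site in intron 37 of Col15a1 on chromosome 4. The heights were 159 normalized tags with KLF3, 80.4 with ΔDL and 25.6 with DBD, and the ΔDL interval of -2.08 to 0.13 held 0. The Tgfbr1 promoter was called in KLF3 replicate 2 alone, with 22 tags 68 bp upstream of the start site, and is not in the table of all peaks.

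Tgfbr2 (type II) had 11 peaks, the most of the 9 genes, over 478 kb of chromosome 9. Of these, 1 was in its intron 1, 8 were between genes upstream and 2 were in introns of Rbms3, the neighbouring gene for an RNA-binding protein. At the 4 peaks listed for both, KLF3 and ΔDL differed by less than the counting intervals. The highest KLF3 peak of all 46 was among them, 208 kb upstream, where KLF3 reached 949 normalized tags, ΔDL 955 and DBD 48.8. Its ΔDL difference was 0.01 (-0.33 to 0.34). In the replicate lists it held 56 and 86 tags with KLF3, and 8 and 60 with ΔDL. The peaks 43.4 kb and 194 kb upstream had 671 and 626 normalized tags with KLF3 and 680.3 and 739 with ΔDL, and the intervals of both differences held 0. After the shift of heights ΔDL was at least 2-fold lower at 7 of the 11 Tgfbr2 peaks, against 1 on the deposited scale.

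The highest and the lowest ΔDL difference of Tgfbr2 were at peaks 292 kb and 456 kb upstream. At the first, listed for ΔDL alone, KLF3 had 91.8 normalized tags, ΔDL 217 and DBD 153, with a ΔDL difference of 1.24 (0.40 to 2.19). At the second, in an Rbms3 intron, KLF3 had 111, ΔDL 32.9 and DBD 12.9, with a ΔDL difference of -1.75 (-3.70 to -0.19). At the intron 1 peak of Tgfbr2, 22.3 kb downstream of the start site, KLF3 had 505, ΔDL 261 and DBD 46.2. No Tgfbr2 promoter peak is in the table, although single replicates called a peak there with 13 tags in KLF3 replicate 2 and 9 in ΔDL replicate 2. The windows of the highest Tgfbr1 and Tgfbr2 peaks held 1 CACCC-type hexamer each.
Tgfbr1 distal, chr4:47322801-47323000: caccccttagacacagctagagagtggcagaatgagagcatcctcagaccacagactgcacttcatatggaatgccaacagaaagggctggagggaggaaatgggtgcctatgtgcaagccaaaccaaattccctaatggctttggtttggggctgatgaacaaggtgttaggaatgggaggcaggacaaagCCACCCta
Tgfbr2 distal, chr9:116292719-116292918: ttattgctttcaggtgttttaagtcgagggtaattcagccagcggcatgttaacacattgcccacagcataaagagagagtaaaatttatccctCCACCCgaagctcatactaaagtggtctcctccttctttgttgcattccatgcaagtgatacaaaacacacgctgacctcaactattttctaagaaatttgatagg

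At Smad3, the receptor-regulated effector of the pathway, ΔDL was lower than KLF3 at every peak. Its 7 peaks lay on chromosome 9, 4 of them in intron 1, 1 in the promoter and 2 upstream. All 7 were listed for KLF3 alone and called in both KLF3 replicates, with 7 to 26 tags in replicate 1 and 15 to 44 in replicate 2. None was called in a ΔDL replicate, whereas 75.7% of all KLF3-listed peaks were called in at least 1. That share is not a like background, since 32.9% of all KLF3-listed peaks were also listed for ΔDL. The ΔDL differences ran from -2.17 to -0.97 with a median of -1.60, 6 of them were at least 2-fold lower, and all 7 intervals lay below 0. Peaks listed for KLF3 alone were not listed for ΔDL, so these lower values follow partly from the listing. The ΔDL heights rested on 8 to 18 tags a peak, those of KLF3 on 36 to 113.

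The highest Smad3 peak, in intron 1 and 36.2 kb downstream of the start site, also had the largest ΔDL difference. Its heights were 484 normalized tags with KLF3, 108 with ΔDL and 123 with DBD, and the ΔDL difference was -2.17 (-3.09 to -1.31). It was the only Smad3 peak called for DBD, with 8 tags in replicate 2. The promoter peak, 341 bp upstream, had the smallest difference, -0.97 (-1.91 to -0.07), from 229 with KLF3, 117 with ΔDL and 55.7 with DBD. The ΔDL construct was not without sites at the locus, since ΔDL replicate 2 called 5 other peaks named for Smad3 with 9 to 14 tags, 3 of them in intron 1 and 2 over 117 kb upstream. Of these 5, none is in the table of all peaks. The windows of the promoter peak and of the highest intron 1 peak held 3 matches and 1 match of the CACCC type.
Smad3 promoter, chr9:63606043-63606242: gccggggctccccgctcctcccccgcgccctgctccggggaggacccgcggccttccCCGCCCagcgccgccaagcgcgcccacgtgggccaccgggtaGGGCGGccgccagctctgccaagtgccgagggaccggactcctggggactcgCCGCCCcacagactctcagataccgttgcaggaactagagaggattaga
Smad3 intron 1, chr9:63569531-63569730: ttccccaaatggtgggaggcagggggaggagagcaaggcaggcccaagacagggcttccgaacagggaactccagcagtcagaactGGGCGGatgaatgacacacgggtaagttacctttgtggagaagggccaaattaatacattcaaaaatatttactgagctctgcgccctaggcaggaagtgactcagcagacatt

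The corepressor genes Ski and Skil each had a promoter peak where ΔDL was lower than KLF3. In the Ski promoter, 705 bp upstream of the start site on chromosome 4, the heights were 288 normalized tags with KLF3, 109.9 with ΔDL and 17.8 with DBD, a ΔDL difference of -1.39 (-2.37 to -0.52). The promoter of Skil, on chromosome 3, had a peak 435 bp upstream where KLF3 had 391, ΔDL 133 and DBD 37.3, a ΔDL difference of -1.55 (-2.40 to -0.75). Both were called in both KLF3 replicates. A ΔDL peak was called at the Ski promoter in replicate 2 alone, with 8 tags, and at the Skil promoter in neither.

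Away from the promoters the peaks of the 2 genes were of different kinds. The Ski peak in intron 1, 48.9 kb downstream, was among the highest of the members. KLF3 had 910.2 normalized tags there, ΔDL 861 and DBD 112. Its ΔDL difference was -0.08 (-0.43 to 0.27), and it was called in both replicates of KLF3 (39 and 126 tags) and of ΔDL (10 and 76 tags). Both distal Skil peaks were listed for ΔDL alone and had low KLF3 heights. At the one 49.3 kb upstream, in intron 15 of the protein kinase gene Prkci, KLF3 had 81.0, ΔDL 184 and DBD 92.4, a ΔDL difference of 1.18 (0.24 to 2.16). At the one in exon 6 of Skil KLF3 had 103, ΔDL 159 and DBD 128, and the interval of -0.31 to 1.57 held 0. CACCC-type matches numbered 3 in the Ski promoter window and 3 in intron 1, and 5 in the Skil promoter window and 0 in exon 6.
Ski promoter, chr4:154597250-154597449: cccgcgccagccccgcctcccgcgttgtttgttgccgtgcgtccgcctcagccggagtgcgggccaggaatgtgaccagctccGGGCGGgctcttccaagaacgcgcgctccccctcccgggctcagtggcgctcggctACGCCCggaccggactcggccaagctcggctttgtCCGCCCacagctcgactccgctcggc
Ski intron 1, chr4:154547678-154547877: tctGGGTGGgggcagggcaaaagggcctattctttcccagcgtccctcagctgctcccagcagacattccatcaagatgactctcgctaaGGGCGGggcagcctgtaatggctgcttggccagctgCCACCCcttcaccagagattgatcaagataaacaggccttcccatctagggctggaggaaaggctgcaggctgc
Skil promoter, chr3:30993449-30993648: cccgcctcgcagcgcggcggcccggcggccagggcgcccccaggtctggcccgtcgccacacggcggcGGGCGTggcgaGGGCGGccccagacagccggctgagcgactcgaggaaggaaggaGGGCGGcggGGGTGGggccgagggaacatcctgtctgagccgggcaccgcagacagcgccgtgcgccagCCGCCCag
Skil exon 6, chr3:31016339-31016538: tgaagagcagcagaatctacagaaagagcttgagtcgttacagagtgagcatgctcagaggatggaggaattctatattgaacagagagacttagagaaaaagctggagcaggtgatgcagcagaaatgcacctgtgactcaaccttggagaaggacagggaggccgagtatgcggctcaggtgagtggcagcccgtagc

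Smad6, the inhibitory SMAD best known for limiting bone morphogenetic protein signalling, lies 195 kb from Smad3 on chromosome 9, and its 9 peaks were all listed for KLF3 alone. Its promoter held 3 of them within 1.29 kb, centred 24, 427 and 911 bp upstream of the start site. They are neighbouring parts of 1 region and are not independent. KLF3 had 622, 843 and 838 normalized tags there, ΔDL had 272, 315 and 338, and DBD had 35.8, 39.1 and 42.2. The ΔDL differences were -1.19, -1.42 and -1.31, and the intervals of all 3 lay below 0. Each was called in both KLF3 replicates, with 31 to 36 tags in replicate 1 and 70 to 80 in replicate 2, and in ΔDL replicate 2 with 21 to 24.

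The 6 other Smad6 peaks varied more. In intron 1, 4.84 kb downstream, the heights were 311 with KLF3 and 94.4 with ΔDL, and at the peaks 80.1 kb and 94.2 kb downstream they were 596 and 461 with KLF3 and 221 and 132 with ΔDL. The peak at 94.2 kb had the largest difference of the gene, -1.81 (-2.63 to -1.01). Of the pair in intron 3, 451 bp apart, the peak 41.7 kb downstream had the smallest difference, -0.05 (-0.91 to 0.75), from 177 normalized tags with KLF3 and 171 with ΔDL. DBD was at least 2-fold lower at all 9. Over Smad3 and Smad6 together ΔDL was at least 2-fold lower at 12 of 16 peaks, beside 23.3% of all KLF3-listed peaks. The 16 were all listed for KLF3 alone, and the 3 in the Smad6 promoter are 1 region. The 2 genes were put together after their values were seen. The windows of the highest promoter peak and of the highest distal peak held 2 matches and 1 match.
Smad6 promoter, chr9:63870194-63870393: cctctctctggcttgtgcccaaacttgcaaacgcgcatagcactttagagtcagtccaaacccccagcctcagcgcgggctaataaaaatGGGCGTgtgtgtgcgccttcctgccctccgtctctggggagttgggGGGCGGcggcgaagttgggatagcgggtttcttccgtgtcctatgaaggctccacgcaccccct
Smad6 distal, chr9:63789625-63789824: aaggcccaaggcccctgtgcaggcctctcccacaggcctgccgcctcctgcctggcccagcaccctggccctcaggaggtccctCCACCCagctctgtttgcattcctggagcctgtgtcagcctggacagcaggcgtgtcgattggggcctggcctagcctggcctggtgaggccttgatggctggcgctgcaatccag

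Smad7, which recruits ubiquitin ligases to the activated TGF-beta receptor, had 10 peaks over 64.1 kb on chromosome 18. ΔDL was at least 2-fold lower at 0 of them, beside 14.9% of all peaks, and 7 of the 10 intervals held 0. Of the 10, 8 were KLF3-listed, and the share among all KLF3-listed peaks was 23.3%. With so few peaks, 0 is not far from these shares. At Smad6 ΔDL was at least 2-fold lower at 6 of 9, of which 3 share the promoter (the difference between the genes was not tested). The 2 sets of peaks are unlike, since 5 of the 10 at Smad7 were listed for ΔDL, against 0 of the 9 at Smad6. After the shift of heights the counts were 7 of 10 at Smad7, 9 of 9 at Smad6 and 7 of 7 at Smad3. The highest KLF3 peak, 25.1 kb upstream, had 446 normalized tags with KLF3, 296 with ΔDL and 44.3 with DBD. Its ΔDL difference of -0.59 (-1.19 to -0.03) was the lowest of the gene. The promoter peak, 219 bp upstream, was listed for ΔDL alone, and KLF3 had 180 normalized tags there, ΔDL 212 and DBD 20.7. The ΔDL difference of 0.24 had an interval of -0.55 to 0.98, which held 0. Of the KLF3 lists, that of replicate 1 held the peak with 12 tags, and that of replicate 2 held instead a promoter peak 687 bp upstream with 28 tags. ΔDL replicate 2 called that second site too, 661 bp upstream with 11 tags, and the site is not in the table of all peaks. In intron 3, 10.2 kb downstream, KLF3 had 263 and ΔDL 258. A group of 3 peaks 37.6 to 38.5 kb downstream had 168 to 402 with KLF3 and 129.8 to 307 with ΔDL.

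The highest ΔDL difference of all 46 was at Smad7, 21.4 kb upstream, at the 1 member peak listed for all 3 constructs. KLF3 had 132 normalized tags there, ΔDL 324 and DBD 218, so that the ΔDL difference was 1.30 (0.55 to 2.01) and the DBD difference 0.73 (-0.02 to 1.46). It was in all 6 lists, at 13 and 21 tags in the KLF3 replicates, 12 and 23 in those of ΔDL and 14 and 24 in those of DBD. A second such peak 8.98 kb upstream, listed for ΔDL alone, had 73.5 with KLF3, 169 with ΔDL and 106 with DBD.

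**Figure D2:**
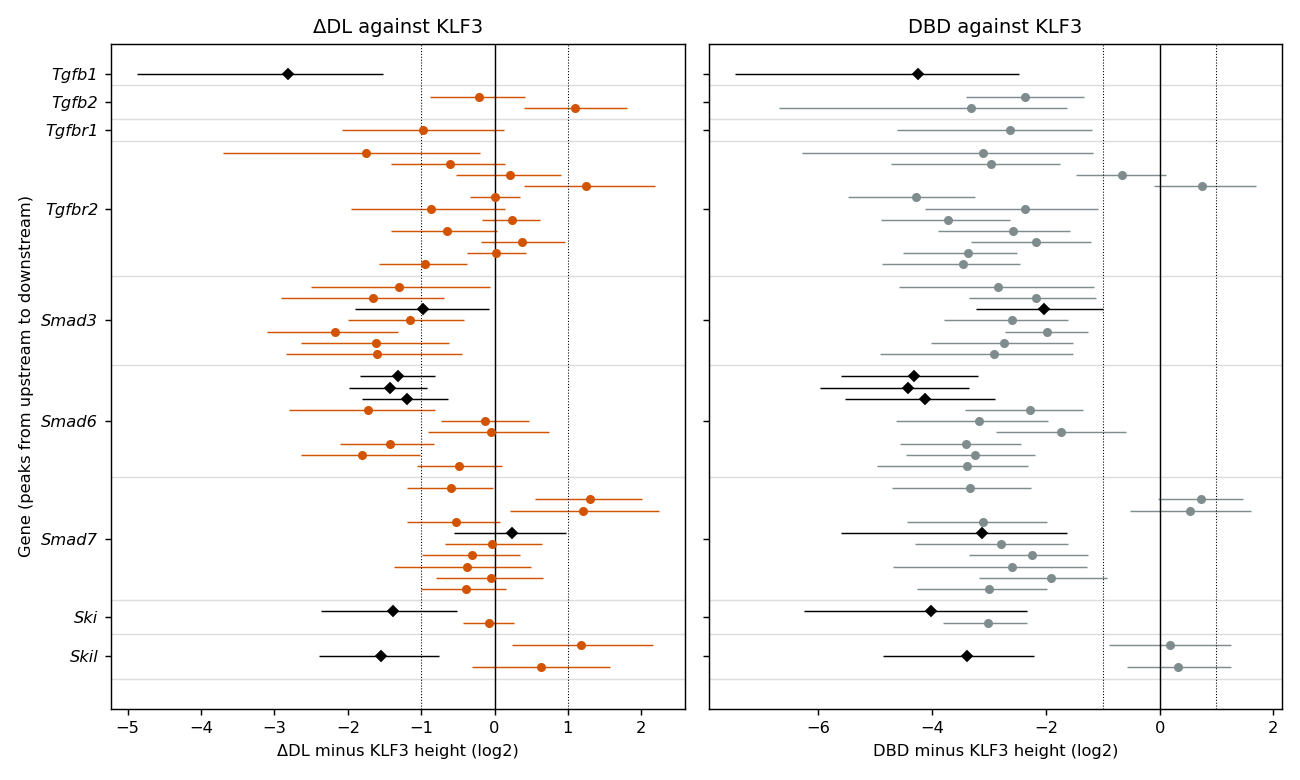
Differences in log2 height from KLF3 at each of the 46 peaks, for ΔDL (left panel) and DBD (right panel), with exact 95% counting intervals; diamonds are promoter peaks, and dotted lines mark 2-fold. In the deposited scaling the promoter peaks lie left of 0 in the ΔDL panel except that of Smad7, at 0.24. The interval of that difference holds 0. No DBD interval lies above 0.

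Promoters and distal peaks can be set side by side over the members. ΔDL was at least 2-fold lower at 6 of the 7 KLF3-listed promoter peaks, 3 of which share the Smad6 promoter, beside 35.1% of all KLF3-listed promoter peaks. It was at least 2-fold lower at 10 of the 34 KLF3-listed peaks outside promoters, beside 18.2%, and 9 of these 10 belonged to Smad3 and Smad6. At the remaining one, in an Rbms3 intron, ΔDL rested on 4 tags. The counting intervals of the ΔDL difference lay below 0 at 19 of the 46 peaks and above 0 at 5, beside 21.1% and 32.5% of all peaks, and held 0 at 22. All 19 were among the 41 KLF3-listed members, beside 33.0% of KLF3-listed peaks. For DBD they lay below 0 at 40 and above 0 at 0, beside 52.7% and 3.85%, and held 0 at 6. Of the 40, 39 were KLF3-listed, beside 79.6%.

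**Figure D3:**
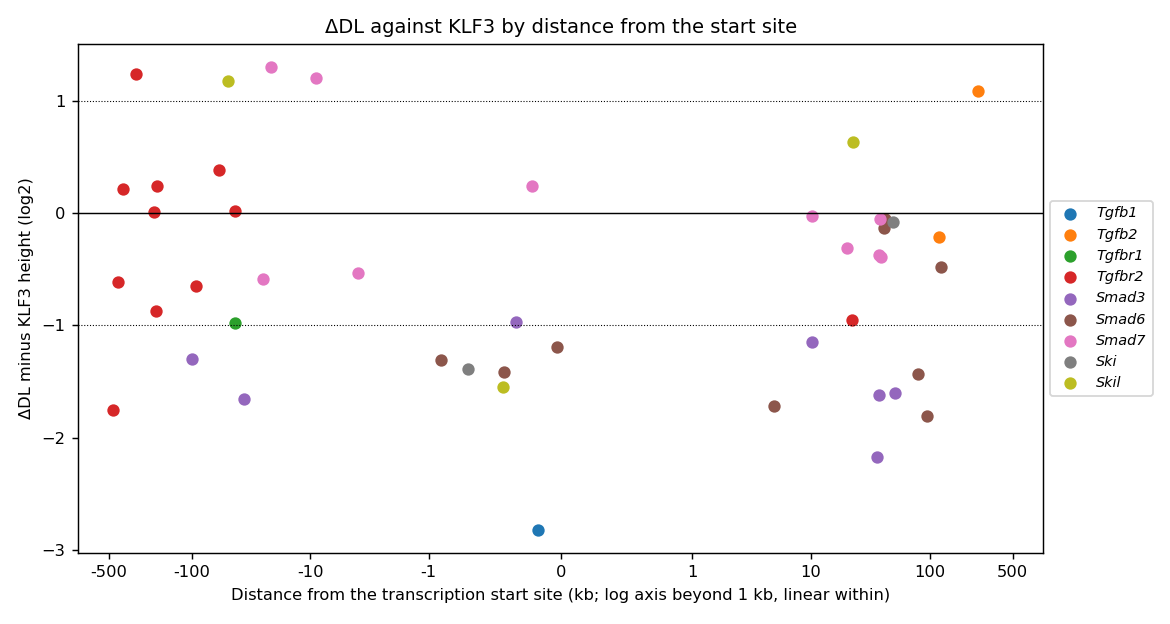
ΔDL minus KLF3 height (log2) of each of the 46 peaks against its distance from the start site of the gene in kb, linear within 1 kb and on a log axis beyond. The 5 peaks above the upper dotted line (2-fold) are 8.98 kb or more from a start site, and within 1 kb the values run from -2.82 at Tgfb1 to 0.24 at Smad7.

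At 6 of the 46 peaks DBD was within 2-fold of KLF3, beside 9797 of all 22188 peaks. Of the 41 KLF3-listed members 2 were, beside 2913 of all 14115 KLF3-listed peaks. All 6 had low KLF3 heights, from 73.5 to 208 normalized tags, and the KLF3 height is itself part of the difference they were picked by. They belonged to Smad7 and Skil (2 each) and to Tgfbr2, at 292 kb and 378 kb upstream. ΔDL was at least 2-fold higher than KLF3 at 4 of them. The fifth peak with a 2-fold higher ΔDL, at Tgfb2, had a DBD height near uniform coverage.

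Of the 46 peaks, 41 were called in both KLF3 replicates and 4 in 1, beside 64.1% and 18.7% of all peaks. For ΔDL 13 were called in both and 19 in 1, always replicate 2, beside 55.9% and 28.4%. For DBD 1 was called in both and 5 in 1, beside 22.4% and 13.7%. Of the 41 KLF3-listed members 27 were called in at least 1 ΔDL replicate, beside 75.7%, and 3 in at least 1 DBD replicate, beside 22.1%.

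**Figure D4:**
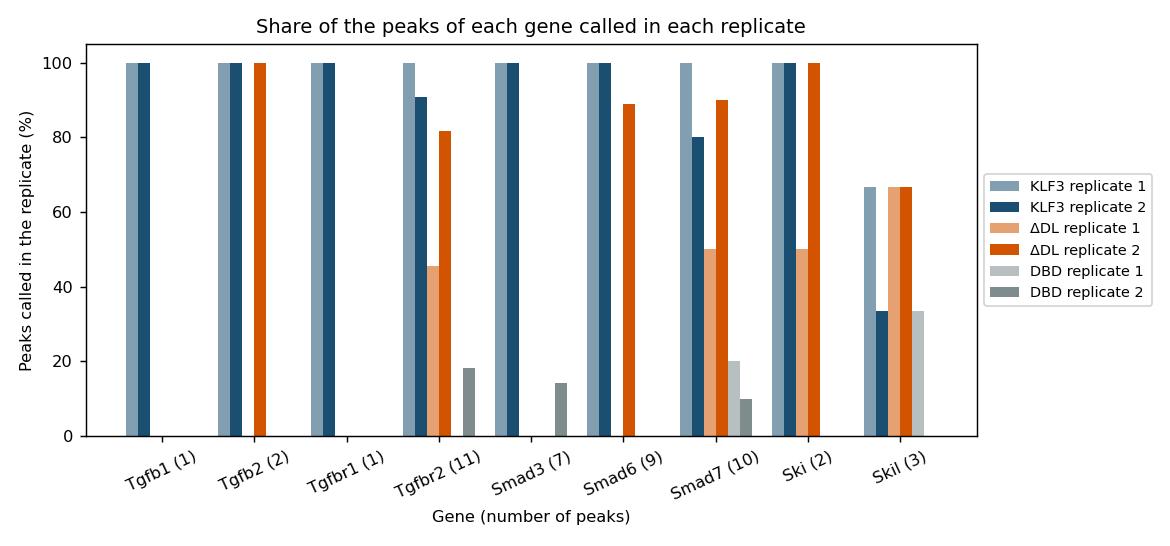
Share of the peaks of each gene (number in brackets) that each replicate list called, in percent; pale bars are replicate 1 and full bars replicate 2. ΔDL bars are missing at Tgfb1, Tgfbr1 and Smad3, and ΔDL replicate 1 is missing at Smad6 and Tgfb2, where replicate 2 called 8 of 9 and 2 of 2 peaks.

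For the 8 members called in both replicates of KLF3 and ΔDL, the scores give a spread that the heights lack. With each ΔDL replicate set against each KLF3 replicate, the log2 ratios ran from -0.34 to 0.09 at the Ski intron 1 peak and from -1.18 to 0.30 at the highest Tgfbr2 peak. At the Tgfbr2 peak 59.0 kb upstream all 4 ratios were above 0, from 0.31 to 1.63. At the Smad7 peak 21.4 kb upstream they ran from -0.08 to 2.55, so the higher ΔDL height there was not outside the spread of the replicates. The replicates of the same number gave 1.51 and 0.95 there, but nothing in the labels ties a number to a shared day or culture. At none of the 8 were all 4 ratios below 0. These 8 had to be called for ΔDL and do not include the peaks where ΔDL was 2-fold lower. With 2 replicates against 2 no exact permutation test can pass a threshold of 0.05, and none was run.

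Sequence under the peaks was compared in the 200 bp window. A CACCC-type hexamer (CCACCC with the variants ACACCC and then CCGCCC and lastly ACGCCC, on either strand, which may overlap) was present at 33 of the 46 member peaks, or 71.7%, beside 50.2% of all peaks. In promoters it was present at 7 of 8 members, beside 93.4%, and outside promoters at 26 of 38, or 68.4%, beside 39.3%. Among KLF3-listed peaks the shares were closer, 75.6% of the members beside 68.7%, and outside promoters 73.5% beside 57.6%. It was present at 13 of the 16 peaks where ΔDL was at least 2-fold lower, and at 1 of the 5 where it was at least 2-fold higher. Those 5 had a G+C content of 41.9% to 45.6%, against 43.9% to 81.5% for the 16. The 2 groups also differ in listing and region. The 16 were all KLF3-listed and 6 of them were in promoters, whereas 2 of the 5 were KLF3-listed and 0 were in promoters. The hexamer shares of all lower and all higher peaks were not counted.

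The TEAD hexamer GGAATG lay in 15 of 38 member windows outside promoters, or 39.5%, beside 14.8% of all such windows. Among KLF3-listed peaks outside promoters these shares were 44.1% and 18.9%. Of the distal Smad3 and Smad6 peaks, 7 of 12 held it. The AP-1 heptamer TGAGTCA (either strand) lay in 8 of 38, or 21.1%, beside 14.5%, but in 20.6% of the KLF3-listed members outside promoters, beside 22.9% of all such peaks. Of the 8, 4 were at Smad3, including its highest peak. The Smad box CAGAC lay in 39.1% of the member windows, beside 32.0% of all windows. RUNX letters (TGTGGT) and ETS letters (CCGGAAG) lay in 15.2% and 4.35%, beside 15.6% and 4.44%. A match gives letters in a window, not a bound site.

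Of the 63 other pathway genes, 48 had 151 peaks in the table. Of the 151, 25 were 2-fold or more lower in ΔDL and 29 were 2-fold or more higher, with a median difference of -0.27, beside 14.9% lower, 28.9% higher and a median of 0.42 over all peaks. DBD was at least 2-fold lower at 103, beside 52.6%. By role, the 28 peaks of ligand genes had 3 lower and 11 higher in ΔDL, and the 25 of receptor genes had 2 and 11. The 36 peaks of regulators had 10 lower and 2 higher. For the 33 peaks of TGF-beta target genes the numbers were 4 and 0, and 32 were at least 2-fold lower in DBD. The roles differed in how many peaks were listed for KLF3. They were 31 of the 33 target, 27 of the 36 regulator, 16 of the 28 ligand and 13 of the 25 receptor peaks. Among all KLF3-listed peaks ΔDL was at least 2-fold lower at 23.3% and higher at 11.0%, and DBD was lower at 79.2%. Differences between roles were not tested.

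The highest KLF3 heights among these genes were at Tgif1, Nedd4l and, tied for the third place, Inhba and Ltbp1. Tgif1, a homeodomain corepressor of SMADs, had 809 normalized tags with KLF3 in an intronic peak and 600.5 with ΔDL, and ΔDL was at least 2-fold lower at 4 of its 8 peaks. The promoter of Nedd4l, a ubiquitin ligase, had 600.5 with KLF3 and 146 with ΔDL, a difference of -2.04. Inhba, which encodes the activin A subunit, had the most peaks, 11, with ΔDL at least 2-fold higher at 5 and lower at 0. Its highest peak had 592 with KLF3 and 671 with ΔDL. Ltbp1, which encodes a latent TGF-beta binding protein, had 592 with KLF3 and 501 with ΔDL at a peak between genes. Acvr2a, an activin type II receptor gene, had 9 peaks with 4 higher and 0 lower in ΔDL.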

How the data were processed

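Peak lists and peak heights from anti-V5 ChIP-seq of KLF3, ΔDL and DBD in rescued Klf3-/- MEFs were used; each record covers 2 replicates. Per the submitters' processing notes, reads were handled with FastQC 0.10.1, Bowtie2 2.0.0, SAMtools 0.1.18 and HOMER 4.1 on mm9. The authors called peaks on each replicate against its input. The heights are log2 values that the authors counted in both replicates combined. The heights that the authors deposited for the same interval in 2 files differed by a median of 0.01 to 0.02 and at most 0.12 on the log2 scale. The scores of the replicate lists are a signal the authors counted as tags per 100 M, and their steps gave the tag numbers used here. The G+C content is a deposited fraction, given here as percent. The deposited conservation score was tabulated but is not reported. The cell type could not be checked against markers, since the files hold binding. The inputs enter only through the authors' peak calling.

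Members are peaks whose deposited gene name is 1 of the 9 genes, chosen, like the lists and alternatives, with earlier results of these data known. A peak was called in a replicate where at least 1 bp was shared. Named are all 9 genes, with the highest KLF3 peak, promoter peaks, and peaks with the largest and smallest ΔDL difference. Of other pathway genes, those with the 3 highest KLF3 heights or the most peaks are named. Other peaks and groups of peaks named in the text were chosen after their values were seen. Positions are mm9, 1-based: deposited G+C matched the reference (NCBIM37) at 10818 of 10820 KLF3 intervals to within 5e-06. Printed windows overlap no UTR of GENCODE vM1. The overlap, motif and interval code was tested on simulated data. The tools were scipy 1.17.1, matplotlib 3.10.9, pandas 2.3.3 and numpy 2.4.6 under Python 3.11.15.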

Additional observations from a re-analysis of the deposited data

How the results depend on the processing

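Of 46 alternative values over the member peaks, 28 stayed within 1.5 times the reported count or 0.1 of the reported median. No median changed sign, and a count cannot. The 28 include settings where the number of peaks at least 2-fold higher in DBD stayed at 0. With the heights shifted to the KLF3 median over commonly listed peaks, ΔDL was at least 2-fold lower at 36 peaks and higher at 0, and the medians were -1.62 with ΔDL and -3.30 with DBD. With a 4-fold limit 2 peaks were lower and 0 higher in ΔDL, and with a 1.5-fold limit DBD was higher at 2. The 5 peaks with a higher ΔDL became 2 among KLF3-listed peaks, 3 within 100000 bp of the start site and 2 with a height of at least 8. Within 100000 bp the median ΔDL difference was -0.80, and with a height of at least 8 the median DBD difference was -3.21. The cause was not tested.

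In both replicates KLF3 had 41 called peaks, ΔDL had 13 and DBD had 1. With either replicate left out, the other called from 41 to 45 peaks of KLF3, from 13 to 32 of ΔDL and from 3 to 4 of DBD. The 32 are without ΔDL replicate 1. With 200 bp in common 0 peaks were called for any construct, since the replicate peaks are narrower than that. No paired fit was made, because the heights combine the replicates and no model was fitted. Ratios of same-numbered replicates were taken from the scores, and at the Smad7 peak 21.4 kb upstream the 2 pairs gave 1.51 and 0.95 on the log2 scale.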
